A study of Homo sapiens with 9 samples.

Results

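The SH3BGRL family comprises SH3BGR, SH3BGRL, SH3BGRL2 and SH3BGRL3, the 4 members of the SH3-binding glutamate-rich protein family. They were taken by gene symbol, and these were the 4 symbols beginning with SH3BGR among the 58051 genes counted. All 4 passed the filter on low counts, which left 14513 genes. RNA was sequenced in 9 libraries of A431, an epidermoid carcinoma cell line that endogenously expresses a mutant p53. A431 parental (mutp53) cells were unmodified, A431 Ctrl (mutp53) cells were made with an empty CRISPR vector, and A431 p53 KO cells were made with a CRISPR construct against p53, with 3 libraries in each group. Cells of every group grew in DMEM with 10% serum and were harvested after 48 h in 6-well plates. The labels describe growth as single colonies, and they do not say whether the libraries of a group came from separate cultures or colonies. The p-values below therefore measure the spread between these libraries, and loss of p53 cannot be told apart from other differences between the cell lines.

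The proteins of this family are small and share a thioredoxin-like fold related to glutaredoxins, but they lack the active-site cysteines of that enzyme class. SH3BGR is best known from heart and skeletal muscle, and it lies in the part of chromosome 21 studied in Down syndrome. SH3BGRL is an adaptor that binds signalling proteins such as the receptor ERBB2, and SH3BGRL3 is a short, widely expressed member that binds the motor protein MYO1C. The study asked which genes depend on mutant p53 in these cells and followed SH3BGRL for its part in the engulfment of one cell by another. SH3BGRL was chosen there on these same libraries, so its values are given as a description without a p-value, and tests are given for the other 3 members.

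In build GRCh38, all 4 genes are on the forward strand. SH3BGRL (ENSG00000131171) is at chrX:81202102-81298547, SH3BGR (ENSG00000185437) at chr21:39445855-39515506, SH3BGRL2 (ENSG00000198478) at chr6:79631329-79703655 and SH3BGRL3 (ENSG00000142669) at chr1:26280086-26281522. SH3BGRL3 spans 1437 bases, against 96446 bases for SH3BGRL. Any link between the sequence before a member and its change was not tested. The sequence just before the annotated start is shown where one was found. It was taken from RefSeq's promoter table for GRCh38.p14, which matched SH3BGRL, SH3BGRL2 and SH3BGRL3, and it reads 5′ to 3′ up to the last base before the gene. Capitals mark matches, on either strand, to the TATA box letters TATAAA, the NF-Y box letters CCAAT, the SP1 box letters GGGCGG and the ETS core letters CCGGAA. The SH3BGRL stretch (chrX:81201914-81202101) is the 188 bases between SH3BGRL and HMGN5, a gene that runs the other way. The SH3BGRL2 stretch is chr6:79631079-79631328 and the SH3BGRL3 stretch is chr1:26279836-26280085.
SH3BGRL: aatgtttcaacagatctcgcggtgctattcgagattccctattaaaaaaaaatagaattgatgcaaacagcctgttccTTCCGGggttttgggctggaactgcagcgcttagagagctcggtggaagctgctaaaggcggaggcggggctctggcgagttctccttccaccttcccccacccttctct
SH3BGRL2: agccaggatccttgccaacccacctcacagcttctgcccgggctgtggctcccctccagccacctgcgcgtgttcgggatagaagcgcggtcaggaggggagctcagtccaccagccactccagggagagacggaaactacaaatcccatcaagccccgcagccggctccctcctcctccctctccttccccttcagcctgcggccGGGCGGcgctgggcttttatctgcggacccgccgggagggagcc
SH3BGRL3: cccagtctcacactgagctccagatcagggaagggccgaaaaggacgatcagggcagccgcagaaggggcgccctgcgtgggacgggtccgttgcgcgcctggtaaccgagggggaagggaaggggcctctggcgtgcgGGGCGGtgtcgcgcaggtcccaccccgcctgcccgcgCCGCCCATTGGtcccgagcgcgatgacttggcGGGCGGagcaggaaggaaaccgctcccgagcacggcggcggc

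Over the 250 bases before the start, SH3BGRL had the lowest share of G and C, at 49.6%, and 31.1% of the 35116 promoters in the table were lower. For SH3BGRL these 250 bases reach past the 188 bases printed and into HMGN5. The share was 67.2% before SH3BGRL2 and 72% before SH3BGRL3, against a median of 58% over the table. SH3BGRL3 held 3 matches to GGGCGG, of which 1 adjoined a CCAAT match on the reverse strand. SH3BGRL2 held 1 match to GGGCGG, from 44 to 39 bases before its start. SH3BGRL held 1 reverse-strand match to CCGGAA, from 110 to 105 bases before its start, and none to the other motifs. In all promoters of this length, the TATA box letters were found in 10.7%, those of the NF-Y box in 32%, those of the SP1 box in 42.6% and those of the ETS core in 14.5%. No window of these 3 genes held a match to the p53-binding decamer, whose letters were found in 5.57% of promoters. For SH3BGRL2 RefSeq also lists an upstream start next to the divergent gene LCA5, whose window held 5 CCAAT matches and none of the others.

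Library totals ranged from 19783778 to 29840452 counts. Of 9 epidermoid markers, 8 had at least 10 counts in every library, while KRT14 had 0 to 13. Markers of leukocytes (PTPRC, CD3E, TYROBP) and of fibroblasts (COL3A1, DCN, LUM, PDGFRA) were at 0 in every library, while COL1A1 had 47 to 114 counts, CD68 15 to 42 and LYZ 1 to 40.

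SH3BGRL was the member that differed most between p53 KO and control cells. It had 186, 191 and 171 counts in parental libraries, 224, 334 and 308 in Ctrl libraries, and 46, 29 and 19 in p53 KO libraries. After normalisation to library size (CPM, counts per 1000000 counts, with TMM-scaled totals), the parental values were 7.12, 7.35 and 7.89, those of Ctrl 11.4, 11.7 and 11.7, and those of p53 KO 1.54, 1.10 and 0.943. All 3 p53 KO libraries lay below all 6 control libraries, as did those of 10.1% of all genes tested. The Ctrl libraries lay above all others, as did those of 10.8% of genes.

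On average p53 KO cells kept 16.1% of the parental SH3BGRL level and 10.3% of the Ctrl level. Relative to parental cells this was a log2 fold change of -2.60 (SE 0.15, 95% interval -2.94 to -2.26), and relative to Ctrl cells one of -3.24 (SE 0.15, 95% interval -3.57 to -2.92). Of the 14513 genes tested, 40 had a lower log2 fold change against parental and 38 a lower one against Ctrl. These comparisons share the p53 KO libraries. Log2 fold changes are printed with their sign throughout, so that a negative value is a lower level in the group named first. The p53 KO value rests on 19 to 46 counts a library, and SH3BGRL RNA remained detectable in each. In bulk RNA, fewer cells with the transcript and less of it per cell cannot be told apart.

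SH3BGRL was also higher in Ctrl than in parental cells, although both carry mutant p53. The Ctrl mean of 11.6 CPM (SD 0.18, n = 3) stood against 7.45 in parental (SD 0.40, n = 3), a log2 fold change of 0.64 (SE 0.12, 95% interval 0.39 to 0.90). The distance from p53 KO therefore depended on which control was used, as the plot of the members by library shows.

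**Figure D1:**
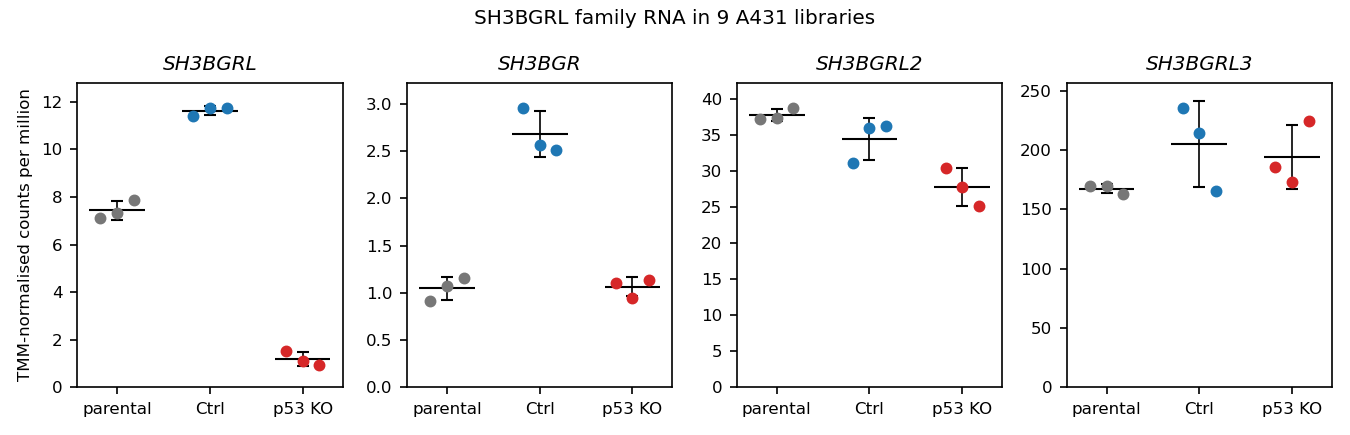
CPM after TMM normalisation (y axis, from 0, a separate scale per panel) of the 4 family members in each library of the parental, Ctrl and p53 KO groups. Points are libraries and the black line and bar are the mean ± SD (n = 3). SH3BGRL separates all 3 groups, SH3BGR is high in Ctrl alone, SH3BGRL2 lies between 25.1 and 30.5 in p53 KO, and SH3BGRL3 overlaps between groups.

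SH3BGR, the muscle-associated founder of the family, was raised in Ctrl cells and did not differ detectably between parental and p53 KO cells. It had 24, 28 and 25 counts in parental, 58, 73 and 66 in Ctrl, and 33, 25 and 23 in p53 KO libraries. In CPM the parental values were 0.918, 1.08 and 1.15, those of Ctrl 2.96, 2.56 and 2.52, and those of p53 KO 1.11, 0.951 and 1.14. All 3 Ctrl libraries lay above the other 6, as did those of 10.8% of all genes, while parental and p53 KO libraries overlapped.

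SH3BGR rose in Ctrl against parental by a log2 fold change of 1.35 (SE 0.17, edgeR adjusted p = 0.000385) and was lower in p53 KO than in Ctrl by -1.32 (SE 0.17, edgeR adjusted p = 0.000171). Between p53 KO and parental the log2 fold change was 0.02 (SE 0.19, edgeR adjusted p = 0.95), and the 95% interval ran from -0.40 to 0.45. At these low counts, a change within that interval was not detectable. The direction read for SH3BGR in p53 KO cells thus depended on the control, since its mean was 39.8% of that in Ctrl.

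Most other striated muscle genes were too low to be tested. Of 9 muscle markers, 8 had at most 3 counts in every library, including MYH7, MYH6 and MYH2 at 0. MB, encoding myoglobin, was the exception with 18 to 45 counts. The summed muscle markers were 0.731 to 0.923 CPM in parental, 1.33 to 2.40 in Ctrl and 1.04 to 1.48 in p53 KO libraries. MB, the main part of that sum, also rose in Ctrl against parental, by a log2 fold change of 1.10, and its relation to SH3BGR was not tested.

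SH3BGRL2 was modestly lower in p53 KO cells. It had 972, 972 and 840 counts in parental, 610, 1025 and 952 in Ctrl, and 908, 729 and 506 in p53 KO libraries. In CPM the parental libraries gave 37.2, 37.4 and 38.8, the Ctrl libraries 31.1, 36.0 and 36.3, and the p53 KO libraries 30.5, 27.7 and 25.1. The p53 KO libraries lay below all 6 controls, as did those of 10.1% of all genes tested. The highest p53 KO library (30.5) nearly met the lowest Ctrl library (31.1).

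Against parental, SH3BGRL2 fell by a log2 fold change of -0.44 (SE 0.09, edgeR adjusted p = 0.00763). Against Ctrl the log2 fold change was -0.31 (SE 0.09, edgeR adjusted p = 0.0281). The latter call was lost in 8 of 16 alternative fits, among them those without p53 KO replicate 3 (-0.24, adjusted p = 0.0999), p53 KO replicate 2 (-0.31, adjusted p = 0.0868), Ctrl replicate 2 (-0.28, adjusted p = 0.0886), Ctrl replicate 3 (-0.28, adjusted p = 0.0657) or parental replicate 2 (-0.31, adjusted p = 0.0503). The call against Ctrl was kept, among others, without Ctrl replicate 1 (-0.38, edgeR adjusted p = 0.00239) and without p53 KO replicate 1 (-0.38, edgeR adjusted p = 0.0238). Ctrl and parental differed by -0.13 (SE 0.09, edgeR adjusted p = 0.320, 95% interval -0.34 to 0.07).

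SH3BGRL3, the most abundant member, did not pass the test in any comparison. It had 4447, 4413 and 3535 counts in parental, 4621, 6099 and 4332 in Ctrl, and 5538, 4544 and 4524 in p53 KO libraries. In CPM the parental libraries gave 170.1, 169.8 and 163, the Ctrl libraries 236, 214 and 165, and the p53 KO libraries 186, 173 and 224. The 3 parental libraries lay close together, whereas Ctrl and p53 KO libraries were spread widely and overlapped.

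The log2 fold change of SH3BGRL3 was 0.21 in p53 KO against parental (SE 0.13, edgeR adjusted p = 0.284, 95% interval -0.07 to 0.50). Against Ctrl it was -0.08 (SE 0.13, edgeR adjusted p = 0.699, 95% interval -0.36 to 0.20). In Ctrl against parental it was 0.29 (SE 0.13, edgeR adjusted p = 0.125, 95% interval 0.01 to 0.57), and without Ctrl replicate 3 it was 0.43 (adjusted p = 0.0150). These intervals exclude a fall in p53 KO of the size measured for SH3BGRL. The 3′ end of SH3BGRL3 overlaps 195 bases of UBXN11 on the reverse strand, which had 1811 to 2544 counts, and whether strand was used in counting is not given in the sources used here. Reads in the shared stretch may thus be split or lost. UBXN11 did not pass the test in any comparison, with log2 fold changes in p53 KO of 0.14 (against parental) and -0.13 (against Ctrl), and of 0.27 between the controls.

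In counts, 2 of the 4 members passed in p53 KO against parental (SH3BGRL and SH3BGRL2, both lower), beside 18.1% of all genes tested, 9.77% higher and 8.36% lower. In p53 KO against Ctrl 3 of 4 passed (all but SH3BGRL3, each lower), beside 29.2% of genes, 15% higher and 14.2% lower. In Ctrl against parental 2 of 4 passed (SH3BGR and SH3BGRL, both higher), beside 20.3% of genes, 10.6% higher and 9.69% lower. SH3BGRL is in each count and was selected by the study for its change. With a log2 fold change also below -1.5, SH3BGRL remained in both p53 KO comparisons, beside 0.717% of genes against parental and 1.11% against Ctrl.

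**Figure D2:**
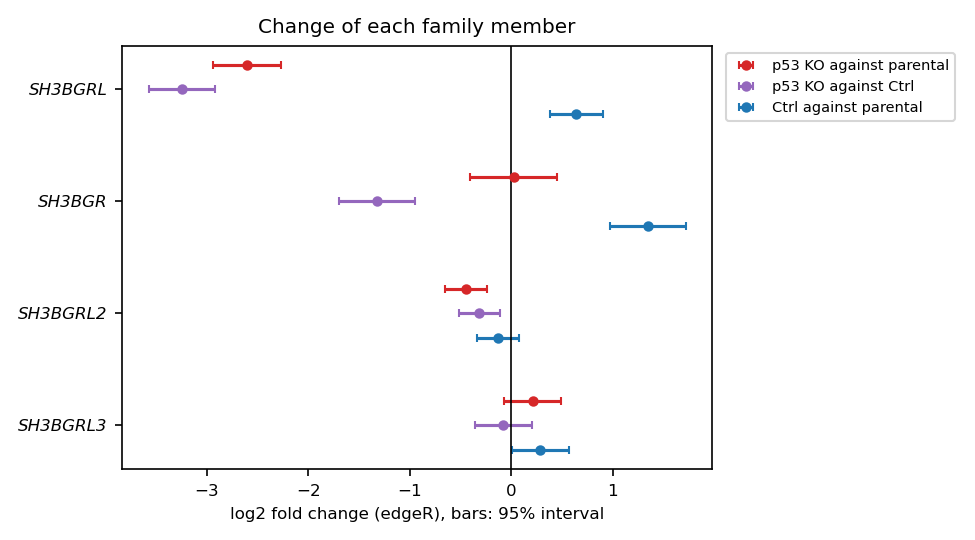
Log2 fold change (x axis) of each family member (y axis) for p53 KO relative to each control and for Ctrl relative to parental cells. Points are edgeR estimates from 3 libraries per group and bars their 95% intervals. SH3BGRL lies at -2.60 and -3.24 in the p53 KO comparisons, SH3BGR moves against Ctrl but not against parental, and the SH3BGRL3 interval includes 0 in both p53 KO comparisons.

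Levels can be compared between members only per transcript length, here as CPM per kilobase of exon. SH3BGRL3 stood at 191 ± 4.5, 234 ± 41.2 and 222 ± 30.7 in the parental, Ctrl and p53 KO groups (SD, n = 3). SH3BGRL2 followed at 8.21 ± 0.19, 7.49 ± 0.63 and 6.03 ± 0.58. SH3BGRL came next in the controls, at 3.47 ± 0.19 in parental and 5.42 ± 0.09 in Ctrl, and fell to 0.558 ± 0.145 in p53 KO. SH3BGR was at 0.725 ± 0.083, 1.85 ± 0.17 and 0.736 ± 0.070.

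The order SH3BGRL3, SH3BGRL2, SH3BGRL, SH3BGR held in each of the 6 control libraries, with no overlap between neighbours in either control group. In p53 KO cells SH3BGRL dropped to the level of SH3BGR. Their ranges across p53 KO libraries, 0.439 to 0.719 for SH3BGRL and 0.657 to 0.788 for SH3BGR, overlapped. These ranges alone therefore did not resolve the order of this pair. Within each library, the ratio of SH3BGR to SH3BGRL per length was 0.191 to 0.217 in parental, 0.317 to 0.384 in Ctrl, and above 1 in p53 KO libraries (1.06 to 1.79). A ratio above 1 in every p53 KO library depends on the exon lengths used. Before division by length, SH3BGR had fewer counts than SH3BGRL in p53 KO replicates 1 (33 against 46) and 2 (25 against 29). It had more in replicate 3 (23 against 19).

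**Figure D3:**
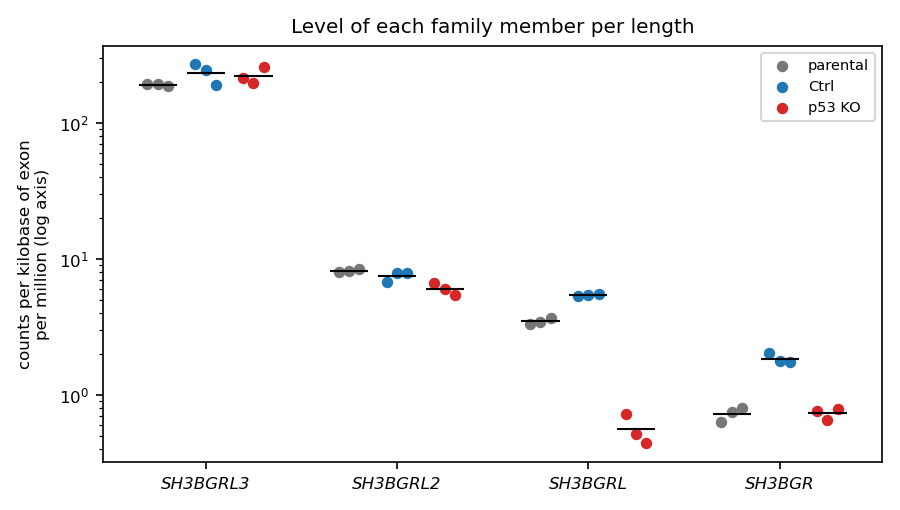
CPM per kilobase of exon (y axis, log axis) for each family member (x axis) in parental, Ctrl and p53 KO libraries. Points are libraries and black lines group means (n = 3). SH3BGRL3 stands far above the others in every library, and SH3BGRL moves from below SH3BGRL2 in the controls to the level of SH3BGR in p53 KO.

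SH3BGRL3 made up 93.9% of the summed family level in both control groups and 96.8% in p53 KO cells. SH3BGRL contributed 1.71% of it in parental cells, 2.23% in Ctrl cells and 0.248% after p53 KO. The summed level itself ranged from 199 to 206 in parental libraries, from 204 to 283 in Ctrl and from 204 to 263 in p53 KO libraries, and SH3BGRL made up at most 2.69% of it in any library. Ratios between the other members per length were read within each library. An exact two-sided permutation test compared p53 KO with the 6 control libraries, parental and Ctrl pooled, and none of the 3 pairs passed. Its Benjamini-Hochberg adjusted p was 0.571 for SH3BGR to SH3BGRL2 and 0.143 for each of the other pairs. The ranges by group that follow are a description. The log2 ratio of SH3BGR to SH3BGRL2 was -3.67 to -3.40 in parental, -2.18 to -1.73 in Ctrl, and between them at -3.20 to -2.79 in p53 KO libraries, with no overlap of the groups. SH3BGRL2 to SH3BGRL3 was -5.55 to -5.00 in p53 KO, below all parental libraries (-4.59 to -4.47) and overlapping the Ctrl libraries (-5.31 to -4.58). SH3BGR to SH3BGRL3 was -8.34 to -8.12 in p53 KO, overlapping parental (-8.26 to -7.87) and below all Ctrl libraries (-7.11 to -6.76). How often other gene pairs lie apart between groups in this way is not given here.

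The fall of SH3BGRL was not shared by tested genes around it on chromosome X. Within 10 Mb on either side, 39 genes were tested, with medians on the log2 scale of -0.04 (against parental) and 0.03 (against Ctrl). None of the 39 was lower than SH3BGRL in either comparison. Against parental 2 passed lower and 1 higher, and against Ctrl none passed lower and 2 passed higher, beside 18.1% and 29.2% of all genes tested that passed in these comparisons. None of them was higher than SH3BGRL in Ctrl against parental.

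The closest neighbour, HMGN5, encodes a nucleosome-binding protein and starts 188 bases away on the opposite strand, at the other end of the SH3BGRL sequence printed above. HMGN5 had 11 to 18 counts in parental, 15 to 19 in Ctrl and 13 to 16 in p53 KO libraries, and its groups overlapped. Relative to parental the log2 fold change was -0.14 (SE 0.29, edgeR adjusted p = 0.782, 95% interval -0.77 to 0.50), and relative to Ctrl it was -0.32 (SE 0.28, edgeR adjusted p = 0.451, 95% interval -0.94 to 0.30). These intervals do not reach those of SH3BGRL, although HMGN5 is near the detection limit. On the other side the nearest tested gene, APOOL, lies 3.71 Mb away and had log2 fold changes of -0.24 and 0.00, neither past the test.

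SH3BGR has a comparable arrangement on chromosome 21, where LCA5L begins 49 bases away on the opposite strand. LCA5L had 24 to 40 counts in parental, 32 to 51 in Ctrl and 26 to 39 in p53 KO libraries. The log2 fold change was 0.45 in Ctrl against parental (SE 0.21, edgeR adjusted p = 0.146) and -0.43 in p53 KO against Ctrl (SE 0.21, edgeR adjusted p = 0.156), the same signs as SH3BGR but short of the threshold. On the other side, 40935 bases away, B3GALT5, a galactosyltransferase gene, went the other way. It was lower in Ctrl than in parental by -2.02 (SE 0.53, edgeR adjusted p = 0.0242) and higher in p53 KO than in Ctrl by 4.15 (SE 0.41, edgeR adjusted p = 3.43e-05).

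Among the 108 tested genes within 10 Mb of SH3BGR, 107 had a lower log2 fold change in Ctrl against parental, and their median was 0.06. A readthrough transcript joins SH3BGR to its upstream gene GET1, listed in the count table under the older symbol WRB. The readthrough has no row of its own in that table, so its reads in shared exons could count towards SH3BGR. WRB, looked up after the values were seen, rose in Ctrl against parental by 0.51 (SE 0.12, edgeR adjusted p = 0.0169) and was lower in p53 KO than in Ctrl by -0.56 (SE 0.12, edgeR adjusted p = 0.00572). The part of readthrough in the SH3BGR values was not tested.

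**Figure D4:**
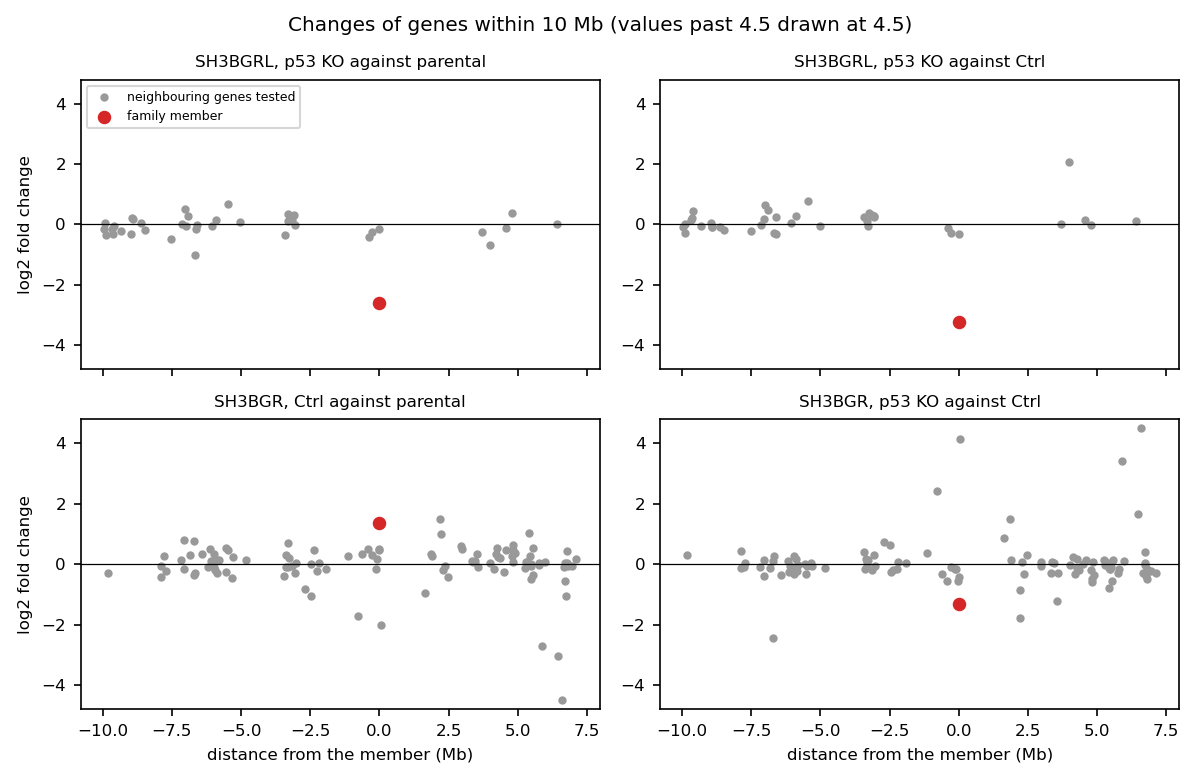
Log2 fold change (y axis) of tested genes within 10 Mb of SH3BGRL (upper panels, 39 genes) and SH3BGR (lower panels, 108 genes) by distance from the member in Mb (x axis). Grey points are neighbours and the red point the member, in the comparison named above each panel. SH3BGRL lies below every neighbour in both p53 KO comparisons. SH3BGR lies above 107 of its neighbours in Ctrl against parental and below 106 of them in p53 KO against Ctrl.

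The surroundings of the other members were close to the median of all genes. Around SH3BGRL2, 66 genes were tested with medians of -0.04 against parental and 0.05 against Ctrl, and 4 and 11 of them had a lower log2 fold change than SH3BGRL2 itself. LCA5, a cilium gene next to its upstream start, had log2 fold changes of 0.01 and 0.00. GAPDHP63, a pseudogene on its other side, had 6 to 20 counts and passed in no comparison. Around SH3BGRL3, 223 genes had medians of 0.02 and 0.00. CEP85, a centrosomal gene 1277 bases upstream, was lower in Ctrl than in parental by -0.25 (SE 0.07, edgeR adjusted p = 0.0274), and CD52, with 6 to 22 counts, was lower in p53 KO than in Ctrl by -1.31 (SE 0.35, edgeR adjusted p = 0.0164).

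Genes with profiles most like each member were ranked by Pearson's r of log2 CPM over the 9 libraries, which fall into 3 groups and are not independent points. For SH3BGRL these were CDK2 (r = 0.997), COPB2 (r = 0.995) and C1orf21 (r = 0.995). CDK2, a cell cycle kinase, and COPB2, a coatomer subunit, followed its order of group means over a far narrower range. In p53 KO against parental their log2 fold changes were -0.27 and -0.46. In Ctrl against parental they were 0.06 and 0.15, and neither passed (edgeR adjusted p = 0.525 and 0.0887). C1orf21 was lower by -2.74 against parental and -3.16 against Ctrl, close in size to SH3BGRL. In total 172 genes, 1.19% of the others tested, had an r of at least 0.95 with SH3BGRL.

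For SH3BGR the closest profiles were SP6 (r = 0.992), a zinc-finger transcription factor gene, the pseudogene MUC20P1 (r = 0.992) and HCAR2 (r = 0.990), a hydroxycarboxylic acid receptor. All 3 were raised in Ctrl alone, which follows from choosing them by likeness to SH3BGR. Their log2 fold changes in Ctrl against parental were 1.06, 2.02 and 1.39. For SH3BGRL2 they were WDR37 (r = 0.984), PAM (r = 0.979), which amidates peptides, and SPTLC2 (r = 0.979), a subunit of serine palmitoyltransferase. For SH3BGRL3 they were ZNF580 (r = 0.988), the histone variant gene H2AFX (r = 0.980) and CLPTM1 (r = 0.978), none of which passed in any comparison. Among the members themselves, r was 0.83 between SH3BGRL and SH3BGRL2, 0.63 between SH3BGR and SH3BGRL, -0.09 between SH3BGRL and SH3BGRL3, and -0.54 between SH3BGRL2 and SH3BGRL3.

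Of 20 relatives that share the thioredoxin fold, all were tested. In p53 KO against parental 5 passed higher and 1 lower (30%, beside 18.1% of all genes), and the median log2 fold change was 0.16, against 0.01 over all genes. Against Ctrl 5 passed higher and 2 lower (35%, beside 29.2%), with a median of 0.08. The glutathione transferase GSTO2 was higher by 0.81 and 0.69 against parental and Ctrl (edgeR adjusted p = 4.29e-05 and 4.33e-05). The glutaredoxin GLRX was higher by 0.70 and 0.41, its iron-handling relative GLRX3 by 0.55 and 0.56, and the splicing-related TXNL4B by 0.25 and 0.44. None of the 20 had a log2 fold change beyond 1.5 in either direction. In Ctrl against parental 3 passed higher and 1 lower (20%, near the 20.3% of all genes). Without Ctrl replicate 1 the number passing against parental rose from 6 to 10, and without any 1 of the parental libraries the number passing in Ctrl against parental fell from 4 to 2. The share of all genes passing in these refits is not given here.

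A list of 16 signalling and cytoskeletal genes drew together reported or candidate partners of the family, and 15 were tested, EVL having 0 to 2 counts. Against parental 2 passed lower and none higher (13.3%, under the 18.1% of all genes), with a median of -0.11. These were PTK2, encoding focal adhesion kinase (-0.59, edgeR adjusted p = 0.000450), and MYO1C, the motor bound by SH3BGRL3 (-0.36, edgeR adjusted p = 0.00153). Both were also lower against Ctrl, by -0.61 and -0.36. Against Ctrl 6 passed lower and 1 higher (46.7%, beside 29.2%), with a median of -0.10. ERBB2, a reported binding partner of SH3BGRL, was lower than in Ctrl by -0.57 (edgeR adjusted p = 0.000144). It was higher in Ctrl than in parental by 0.44 (edgeR adjusted p = 0.00163). In p53 KO against parental ERBB2 did not pass (-0.12, edgeR adjusted p = 0.257). EGFR was the 1 partner that passed higher against Ctrl (0.42, edgeR adjusted p = 0.00846). Both are named here after their values were seen. In Ctrl against parental 2 passed higher and 1 lower (20%, near the 20.3% of all genes). The number passing was 4 against parental without Ctrl replicate 1, 4 against Ctrl without Ctrl replicate 2, and 5 in Ctrl against parental without Ctrl replicate 3. For these refits too, the share of all genes passing is not given here.

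Of 45 genes linked to engulfment, contractility and cell junctions, 36 were tested. In p53 KO against parental 4 passed higher and 8 lower (33.3%, beside 18.1% of all genes), with a median of -0.09. Without Ctrl replicate 1 the count rose from 12 to 20, and without parental replicate 1 it was 6. Without parental replicate 3, p53 KO replicate 2 or p53 KO replicate 3 it was 7. Against Ctrl 6 passed higher and 5 lower (30.6%, near the 29.2% of all genes), with a median of -0.03, and 7 passed without p53 KO replicate 3 or Ctrl replicate 2. For the fits that leave out a library, the share of all genes passing is not given here. In Ctrl against parental 3 passed higher and 6 lower (25%, beside 20.3%). MYL9, a myosin light chain, was lower by -1.61 and -1.22 against parental and Ctrl (edgeR adjusted p = 1.11e-05 and 3.07e-05). MYH9, the non-muscle myosin heavy chain, was lower by -0.58 and -0.43, and CDH1, encoding E-cadherin, by -0.32 and -0.33. EZR, which links membrane to actin, was higher by 0.48 and 0.63.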

How the data were processed

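Gene counts came from 3 A431 parental, 3 A431 Ctrl and 3 A431 p53 KO libraries. Per the labels and methods, poly(A) libraries were made with a strand-specific kit and sequenced as paired-end 75 bp reads. According to the submitters' processing notes and the methods, the authors used FastQC, STAR 2.5.1b on GRCh38 and featureCounts on Ensembl release 85, and they deposited raw counts for 58051 genes. Library totals (19783778 to 29840452) limit the precision of low genes.

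The analysis used edgeR 4.0.16 in R 4.3.3: filterByExpr by group (minimum count 10), TMM normalisation and a quasi-likelihood fit of all 9 libraries with 1 mean per group, the p-values being adjusted by Benjamini-Hochberg over 14513 genes. A gene passed at an adjusted p of at most 0.05. Likeness used log2 CPM with a prior count of 2. Exon lengths, places and neighbours came from GENCODE release 44, promoters from RefSeq (GRCh38.p14), and a search with BLAST 2.17.0 (at least 95% identity over 75 bases) found no copies of members beyond UBXN11 and GET1-SH3BGR, which overlap them. DESeq2 1.42.0, other filters, a replicate block, fits of 2 groups and leaving out each library were alternatives.

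The members and gene lists were chosen with earlier results of these data known. Named were the members, markers, nearest tested neighbours, the 3 most alike genes per member and, per list, up to 4 genes with the largest change against parental that passed with 1 sign in both p53 KO comparisons. The check of the targeted gene is not reported here.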

Additional observations from a re-analysis of the deposited data

Results flagged for a closer look

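The change against parental differed between p53 KO and Ctrl cells for SH3BGR, by -1.32 on the log2 scale (edgeR adjusted p = 0.000171). The gene was raised in all 3 Ctrl libraries and in none of the 3 p53 KO libraries. For SH3BGRL the same difference was -3.24, with p53 KO lower and Ctrl higher than parental. SH3BGRL was selected by the study on these libraries, and this second difference is a description. Both differences are the comparison of p53 KO with Ctrl itself.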

How the results depend on the processing

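The members were refitted under 16 alternatives. SH3BGR and SH3BGRL kept their direction and their side of the threshold in each wherever they had passed, as did SH3BGRL2 against parental. SH3BGRL ranged from -2.85 to -2.48 against parental and from -3.49 to -3.12 against Ctrl, and SH3BGR from -1.37 to -1.24 against Ctrl. SH3BGRL2 against Ctrl lost its call in 8, also with DESeq2 on 2 groups (adjusted p = 0.0860) and in the edgeR fit of 2 groups (adjusted p = 0.0765). SH3BGRL3 in Ctrl against parental passed with every gene of at least 1 count kept (edgeR adjusted p = 0.0267) and without Ctrl replicate 3. Its sign against Ctrl was not stable, at -0.22 to 0.03 when single libraries were left out.

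Samples with the same replicate number did not deviate together (correlations from -0.35 to 0.04), so the numbers were not taken as pairs. With the replicate block, SH3BGRL2 against Ctrl gave an adjusted p of 0.0756, and the counts passing were 7 engulfment genes against parental, 4 partners against Ctrl and 2 thioredoxin relatives in Ctrl against parental.

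Counts of lists moved by more than 1.5 times as follows. With only 2 groups fitted, 4 partners and 20 engulfment genes passed against parental, 4 partners against Ctrl and 2 thioredoxin relatives in Ctrl against parental. DESeq2 on 2 groups passed 5 partners and 19 engulfment genes against parental and 7 engulfment genes against Ctrl, and DESeq2 on all 9 libraries passed 7 thioredoxin relatives in Ctrl against parental. With every gene of at least 1 count kept, 4 partners passed against parental and 5 in Ctrl against parental. Leaving out each library in turn gave 6 to 20 engulfment genes, 2 to 4 partners and 4 to 10 thioredoxin relatives against parental, 7 to 16 engulfment genes and 4 to 6 partners against Ctrl, and 2 to 5 partners and 2 to 6 thioredoxin relatives in Ctrl against parental. For the alternatives, the replicate block included, the share of all genes passing is not given here. The shifts therefore cannot be read as particular to these lists, and their cause was not tested.

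Ranked by Spearman's rho at 0.95 or more, 20 genes were like SH3BGR, 91 like SH3BGRL, 23 like SH3BGRL2 and 30 like SH3BGRL3, against 91, 172, 53 and 50 by Pearson's r. Per length of the longest transcript, levels were 0.946, 2.42 and 0.962 for SH3BGR in parental, Ctrl and p53 KO, 4.22 and 6.59 for SH3BGRL in parental and Ctrl, and 218 and 253 for SH3BGRL3 in parental and p53 KO. SH3BGR and SH3BGRL in p53 KO rest on 19 to 46 counts a library, which limits how finely they can be compared.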

Other observations

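Genes of the engulfment list beyond those selected by the naming rule also changed, and they are named here after their values were seen. MERTK, a receptor for dying cells, was lower than in parental by -2.61 in p53 KO (edgeR adjusted p = 0.000152) and by -1.64 in Ctrl (edgeR adjusted p = 0.00119). In p53 KO against Ctrl MERTK did not pass (-0.97, edgeR adjusted p = 0.0552). Its relative AXL was lower than in parental by -0.46 in p53 KO (edgeR adjusted p = 0.00392) and by -0.72 in Ctrl (edgeR adjusted p = 0.000309), and was therefore higher in p53 KO than in Ctrl, by 0.26 (edgeR adjusted p = 0.0477). ITGB5, an integrin subunit, was lower than in parental by -0.56 and -0.53 in p53 KO and Ctrl (edgeR adjusted p = 0.000298 and 0.000410). It did not pass in p53 KO against Ctrl (-0.03, edgeR adjusted p = 0.769). RAC1, a small GTPase that drives actin rearrangement, was higher in p53 KO than in parental by 0.24 and than in Ctrl by 0.23 (edgeR adjusted p = 0.0240 and 0.0183).

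Both receptors of the EGFR family on the list of partners had opposite orders in the control lines. EGFR was lower in Ctrl than in parental by -0.65 (edgeR adjusted p = 0.00128), while ERBB2 was higher there. Among the thioredoxin relatives, TXN2, the mitochondrial thioredoxin, rose in Ctrl against parental by 0.55 (edgeR adjusted p = 0.00685) and was lower in p53 KO than in Ctrl by -0.46 (edgeR adjusted p = 0.00981), the same order of groups as SH3BGR.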
